A study of Homo sapiens with 39 samples.

Results

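Cell cycle and replication genes were followed in 4 human B cell lymphoma lines after 6 h with a compound or with DMSO, the vehicle. The 42 genes were chosen by name as drivers of S phase entry, origin licensing factors, DNA synthesis factors, regulators of mitotic entry, and spindle and mitotic exit genes. All 42 were among the 15808 gene IDs of the deposited table, and all 42 passed the filter on low counts that left 12814 genes to test. RNA was sequenced from 39 libraries, 3 in each of 13 groups. Each of the lines DOHH2, OCILy10, TMD8 and Toledo had a NEO2734, an OTX015 and a DMSO group, and OCILy10 also had a CB103 group. NEO2734 blocks the bromodomains of BET proteins and of CBP/p300, OTX015 (birabresib) blocks those of BET proteins, and CB103 blocks transcription by the Notch complex. DOHH2 and Toledo represent germinal centre-type lymphoma, while OCILy10 and TMD8 represent the activated B cell type. Each line is 1 established culture, so a difference between types rests on 2 lines a type. Doses are not stated in the labels, and whether the inhibitors were given at matched doses is therefore unknown. Protocol text repeated for every sample mentions drugs other than these, and the label of the individual sample was followed. Separate cultures are not stated for the libraries within a group, and p-values therefore measure only the spread between libraries.

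Cells enter S phase when cyclin E and CDK2 relieve the block that the retinoblastoma protein holds on E2F factors, which switch on genes for origin licensing and DNA synthesis. MCM2 to MCM7 form the ring that CDC6 and CDT1 load on origins and that later unwinds DNA, while PCNA, polymerase alpha and the nucleotide enzymes RRM1, RRM2 and TYMS carry synthesis. A later wave under MYBL2 and FOXM1 supplies cyclin B, CDK1, the kinases PLK1, AURKA and AURKB, and the spindle genes. BET proteins are known to support transcription of MYC, which drives growth in B cell lymphoma, and MYC in turn is known to support cell cycle genes.

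Promoter letters, which the choice of genes did not use, were tallied by role. RefSeq (GRCh38.p14) held a promoter of 300 bases, from 250 before to 50 after the start, for 34 of the 42 genes. The letters TTTCGCGC, TTTGGCGC or TTTCCCGC, which E2F factors are known to bind, were searched on both strands. They stood in 15 of 34 promoters (44.1%), against 2.74% of the 35116 promoters in the RefSeq table. The 34 are 1 promoter a gene, while the 35116 were not limited to 1 a gene or to expressed genes, here and for the letters below. By role, 6 of 7 licensing, 5 of 8 DNA synthesis, 3 of 5 G1/S driver, 1 of 6 mitotic entry and 0 of 8 spindle and exit promoters held them. The letters TTTGAA, the core of the cell cycle homology region (CHR) of late cell cycle promoters, were in 10 of 34 (29.4%), against 15.2% of all promoters. They were in 4 of 6 mitotic entry and 4 of 8 spindle and exit promoters, and in 0 of 7 licensing promoters. CCAAT was in 25 of 34 (73.5%), against 34.6% of all promoters, and the E-box CACGTG that MYC and MAX can bind was in 8 of 34 (23.5%), against 7.26%. CHR, CCAAT and E-box letters were also searched on both strands, and a match describes the letters only.

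The promoters of 5 genes follow, 5′ to 3′ on the strand of the gene, with the matches in capitals. MCM7 and RRM2 are the genes whose change passed the test for a compound, E2F2 had the lowest p between lines, and PCNA and CDK1 had the largest differences between library depths. They lie at chr7:100101348-100101647 (minus strand), chr2:10122489-10122788 (plus), chr1:23531184-23531483 (minus), chr20:5126573-5126872 (minus) and chr10:60778081-60778380 (plus), in the order printed.
MCM7: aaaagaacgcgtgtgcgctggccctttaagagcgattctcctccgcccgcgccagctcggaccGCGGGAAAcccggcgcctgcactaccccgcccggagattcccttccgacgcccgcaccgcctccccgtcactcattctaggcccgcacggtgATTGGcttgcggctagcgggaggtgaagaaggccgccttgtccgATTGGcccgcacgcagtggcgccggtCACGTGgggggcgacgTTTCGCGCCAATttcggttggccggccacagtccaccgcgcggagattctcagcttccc
RRM2: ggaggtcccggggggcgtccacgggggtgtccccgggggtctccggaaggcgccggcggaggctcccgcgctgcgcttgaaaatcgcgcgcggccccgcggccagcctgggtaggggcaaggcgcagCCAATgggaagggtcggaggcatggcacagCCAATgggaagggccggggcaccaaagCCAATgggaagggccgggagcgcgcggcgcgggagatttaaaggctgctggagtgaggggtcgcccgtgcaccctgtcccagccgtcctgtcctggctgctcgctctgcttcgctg
E2F2: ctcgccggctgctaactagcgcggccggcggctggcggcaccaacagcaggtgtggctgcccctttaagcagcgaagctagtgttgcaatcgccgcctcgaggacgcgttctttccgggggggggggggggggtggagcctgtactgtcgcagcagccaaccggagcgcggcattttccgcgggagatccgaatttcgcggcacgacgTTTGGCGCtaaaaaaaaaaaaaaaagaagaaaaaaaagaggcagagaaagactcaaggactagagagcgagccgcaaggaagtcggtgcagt
PCNA: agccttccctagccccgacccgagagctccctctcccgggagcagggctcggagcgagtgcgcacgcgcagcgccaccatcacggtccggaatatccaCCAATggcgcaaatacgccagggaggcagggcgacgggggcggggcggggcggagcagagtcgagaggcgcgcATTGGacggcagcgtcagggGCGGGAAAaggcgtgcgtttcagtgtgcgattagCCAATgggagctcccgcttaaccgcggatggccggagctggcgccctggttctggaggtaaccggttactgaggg
CDK1: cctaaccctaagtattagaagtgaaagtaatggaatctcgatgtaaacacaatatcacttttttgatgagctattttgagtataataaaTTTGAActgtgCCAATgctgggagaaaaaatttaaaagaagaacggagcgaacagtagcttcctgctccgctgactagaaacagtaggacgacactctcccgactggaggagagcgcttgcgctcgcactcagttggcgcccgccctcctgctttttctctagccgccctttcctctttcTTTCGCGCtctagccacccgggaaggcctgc
MCM7 held 2 E2F matches, 3 CCAAT boxes and 1 E-box, and its second E2F match shares 1 base with a CCAAT box. RRM2 held 3 CCAAT boxes and none of the E2F, CHR or E-box letters, E2F2 held 1 E2F match, and PCNA held 1 E2F match and 3 CCAAT boxes. CDK1 held a CHR core and a CCAAT box upstream of the start and an E2F match downstream of it.

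More of these genes differed with library depth than with either compound. Totals ranged from 1000281 to 11668542 counts and fell into 15 deep libraries of at least 6670250 and 24 shallow ones of at most 3420458. With group held, 27 of the 42 genes were higher and 1 was lower in deep libraries (edgeR quasi-likelihood test, Benjamini-Hochberg adjusted p under 0.05), against 31.0% of all tested genes higher and 28.6% lower (59.6% in all). The median log2 difference, deep over shallow, was 0.71 for the 42 genes and 0.04 for all genes. PCNA, the sliding clamp of DNA polymerases, differed by 1.66 ± 0.15 (SE), and CDK1, the kinase of mitotic entry, by 1.55 ± 0.12. For both, every deep library was above every shallow library of its group in 13 of 13 groups. Cyclin A2 (CCNA2, 1.47) and cyclin E1 (CCNE1, 1.25) followed, while CDK2, the partner of both, was the gene that was lower (-0.57 ± 0.12). MCM7 (0.00 ± 0.13) and RRM2 (0.20 ± 0.13) did not pass. The 42 genes together took 0.651% to 1.05% of the counts of a deep library and 0.280% to 1.03% of a shallow one. Each of the 13 groups held at least 1 deep library, so every comparison had both depths in both groups. Most groups held 1 deep library, and the OCILy10 DMSO and NEO2734 groups held 1 shallow library each. Within 1 depth only sizes of change are therefore given. The depths were not balanced in OCILy10, where replicate 2 was deep for DMSO and NEO2734 and shallow for OTX015 and CB103. In that line the median log2 change of the 42 genes with depth as a term was 0.18 for OTX015 and 0.24 for CB103. By DESeq2 without that term it was -0.06 and 0.05. What sets the deep libraries apart beyond their totals was not stated in the labels.

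In 3 libraries, genes that mark another line were present. Genes of 1 line only, 10 to 16 a line, were picked with these 3 libraries left out. They had over 10 CPM in every library of the line and a 90th percentile under 1 CPM in the other lines. Their low level in the other 36 libraries, at most 2.29% of that line's level, therefore follows from the choice. Genes of OCILy10 stood at 74.1% in Toledo DMSO replicate 2 and at 11.5% in DOHH2 NEO2734 replicate 3, and genes of Toledo at 29.8% in OCILy10 CB103 replicate 2. Genes of the labelled line stood at 41.3% in Toledo DMSO replicate 2, 72.3% in DOHH2 NEO2734 replicate 3 and 80.8% in OCILy10 CB103 replicate 2, against 69.0% or more in the other 36 libraries. How these genes came to be there was not tested. All 8 B cell markers were detected in every library, with a summed level of 450 to 3992 CPM (counts per 1000000, TMM-scaled). The T cell markers, 4 of 8 of which were in the table, summed to 2.62 to 125.5 CPM. The myeloid markers, 5 of 8 in the table, summed to 0 to 73.7 CPM. Named results that changed without these 3 libraries are given both ways.

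**Figure D1:**
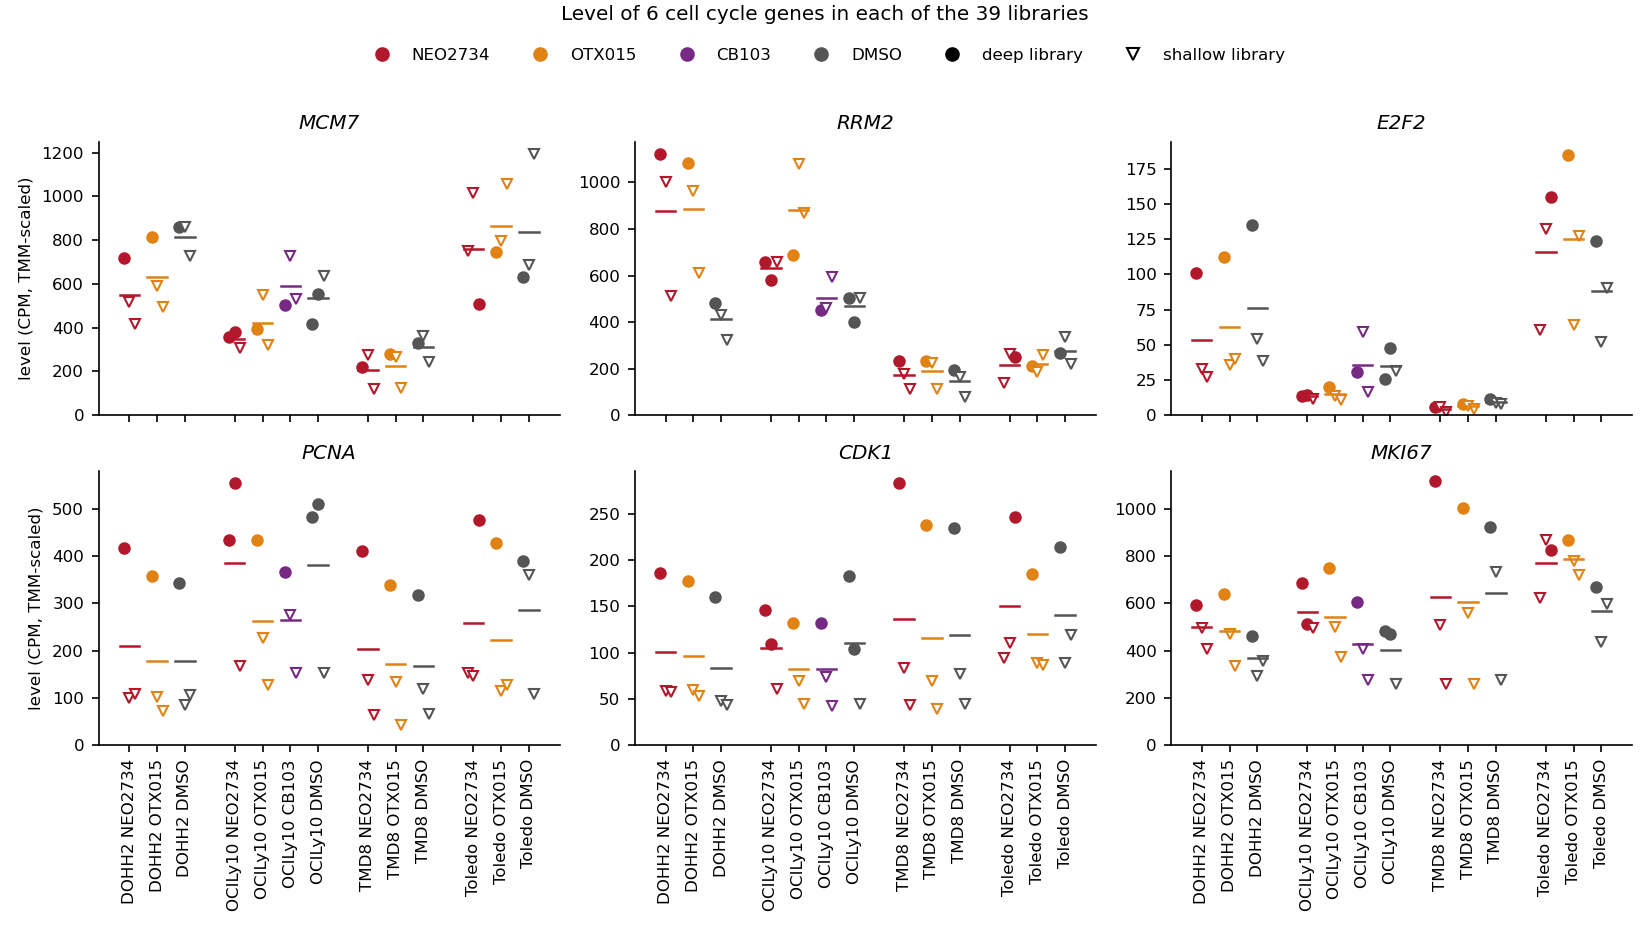
Level of 6 genes in each library (vertical axes, CPM scaled by TMM; the scales differ between panels), by group (horizontal axis); filled circles are deep and open triangles shallow libraries, and the bar is the mean of 3 libraries. PCNA and CDK1 separate by depth in every group (1.66 and 1.55 on the log2 scale), while MCM7 does not separate by depth, and its NEO2734 libraries lie below its DMSO libraries in DOHH2 and OCILy10.

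Both bromodomain inhibitors left nearly all of the 42 genes without a called change at 6 h in the fit without a replicate block. Averaged over the 4 lines, 1 of 42 genes passed for NEO2734 and 1 for OTX015, and they were different genes: MCM7, a subunit of the replicative helicase, fell with NEO2734, and RRM2, the regulated subunit of ribonucleotide reductase, rose with OTX015. Over all tested genes 20.5% passed for NEO2734 (11.2% lower) and 11.6% for OTX015 (5.53% higher). DESeq2 also called MCM7 alone for NEO2734 and RRM2 alone for OTX015. Replicate numbers were taken to pair the libraries in 3 of the 4 lines for NEO2734 and in 2 of the 4 for OTX015. In those lines the same numbers were deep in both groups, so pairing and shared depth cannot be told apart. A replicate block within each line also covered sets where the numbers were not taken to pair the libraries. These were Toledo for both inhibitors and OCILy10 for OTX015. With this block 9 genes passed for NEO2734, beside 28.5% of all genes, and 2 for OTX015, beside 18.9%. For NEO2734 MCM7 (-0.50), MCM2 (-0.65), MCM3 (-0.30) and E2F2 (-0.59) were then lower, and RRM2 (0.34), TTK (0.33), KIF11 (0.31), CCNE2 (0.50) and MKI67 (0.32) higher. For OTX015 RRM2 (0.51) was then higher and MCM2 (-0.60) lower. The known responders of this compound class moved in the same libraries. HEXIM1, an inhibitor of P-TEFb that rises when BET proteins are displaced, rose by 2.10 ± 0.24 on the log2 scale with NEO2734 (edgeR adjusted p = 2.67e-07) and by 1.85 ± 0.24 with OTX015 (8.12e-06). MYC fell by 1.38 ± 0.22 with NEO2734 (edgeR adjusted p = 4.39e-05) and by 0.77 ± 0.22 with OTX015 (0.0196). Within lines, HEXIM1 passed for NEO2734 in DOHH2 (1.98), TMD8 (2.26) and Toledo (2.51) and not in OCILy10 (1.65, edgeR adjusted p = 0.0776), and for OTX015 in Toledo (2.12) only. MYC passed for NEO2734 in DOHH2 (-1.63) and TMD8 (-3.31) and for OTX015 in TMD8 (-2.41), while for NEO2734 it had -0.53 in OCILy10 and -0.06 in Toledo.

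MCM7 had 719, 519 and 415 CPM with NEO2734 in DOHH2, against 861, 859 and 729.5 with DMSO (replicates 1 to 3). In OCILy10 it had 356, 380.4 and 308 CPM with NEO2734, against 418, 552 and 636 with DMSO. In TMD8 it had 221, 274 and 121 CPM with NEO2734, against 328, 363 and 243 with DMSO. All NEO2734 libraries were below all DMSO libraries in DOHH2 and OCILy10, and the groups overlapped in TMD8. In Toledo MCM7 had 752, 1015 and 506 CPM with NEO2734, against 631, 687 and 1196 with DMSO, and the groups overlapped. The mean change over lines was -0.48 ± 0.16 (SE, log2 scale; edgeR adjusted p = 0.0328). Within shallow libraries it was -0.62 and within deep libraries -0.41, and with depth as a term it was -0.48 (adjusted p = 0.0197). Without the 3 libraries with genes of another line it was -0.46 (adjusted p = 0.0568), so the call was lost in that fit. With the same 3 libraries left out and depth as a term it was -0.46 (0.0260). Leaving out 1 library in turn kept the change between -0.55 and -0.39, with the call lost for 12 of 39 libraries. These were DMSO replicates 1 and 2 of DOHH2, 2 and 3 of OCILy10, 1 and 2 of TMD8 and 3 of Toledo, and NEO2734 replicates 2 and 3 of DOHH2, 3 of TMD8 and 1 and 3 of Toledo. The adjusted p was highest, 0.0846, without Toledo DMSO replicate 3. MCM7 lies at 7:100092728-100101940 on the minus strand (GRCh38, GENCODE 29), its exons overlap those of AP4M1 on the opposite strand, and its span holds MIR25, MIR93 and MIR106B, so counts that ignore strand could hold AP4M1 reads.

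RRM2 had 1085, 962 and 611 CPM with OTX015 in DOHH2, against 483, 431 and 324 with DMSO. In OCILy10 it had 689, 1079 and 871 CPM with OTX015, against 501.5, 402 and 501.5 with DMSO. In TMD8 it had 232, 223 and 113 CPM with OTX015, against 195, 166 and 76.4 with DMSO. The OTX015 libraries were all above the DMSO libraries in DOHH2 and OCILy10, and the groups overlapped in TMD8. In Toledo it had 211, 187 and 257 CPM with OTX015, against 269, 338 and 222 with DMSO, again with overlap. The mean change was 0.51 ± 0.17 (SE, log2 scale; edgeR adjusted p = 0.0438). Within shallow libraries it was 0.53, within deep libraries 0.41, and with depth as a term 0.53 (adjusted p = 0.0160). Without the 3 libraries with genes of another line it was 0.55 (adjusted p = 0.0349). Leaving out 1 library in turn kept the change between 0.44 and 0.58, with the call lost for 22 of 39 libraries. In DOHH2 these were DMSO 2 and 3 and OTX015 1 and 2, and in OCILy10 CB103 1 and 2, DMSO 1 to 3, NEO2734 1 to 3 and OTX015 2 and 3. In TMD8 they were DMSO 3, NEO2734 2 and OTX015 1 and 2, and in Toledo DMSO 1 and 3 and OTX015 1 and 3. The adjusted p was highest, 0.0837, without TMD8 DMSO replicate 3. For NEO2734 the mean change of RRM2 with depth as a term was 0.35 (edgeR adjusted p = 0.0923). With that term and without the 3 libraries it was 0.475 (0.0209). RRM2 lies at 2:10120698-10131419 on the plus strand (GRCh38, GENCODE 29).

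Most estimates for the licensing factors were below 0, and 1 passed. With NEO2734 7 of 9 had a negative change (median -0.24, all genes -0.02) and only MCM7 was called, and with OTX015 8 of 9 were negative (median -0.22) and 0 were called by edgeR, 0 by DESeq2 and 0 had an unadjusted p under 0.05. MCM5 and E2F2 had the next lowest p for NEO2734. MCM5, another helicase subunit, had a change of -0.61 ± 0.27 with NEO2734 (edgeR adjusted p = 0.118), which became -0.26 without the 3 libraries with genes of another line and passed without TMD8 NEO2734 replicate 2 (-0.76, 0.0481) or Toledo DMSO replicate 1 (-0.73, 0.0374). In Toledo MCM5 had 147, 149 and 54.9 CPM with NEO2734, against 54.5, 436.5 and 100.3 with DMSO, and the value of 436.5 belongs to Toledo DMSO replicate 2. E2F2, a transcription factor of S phase entry, had a change of -0.60 ± 0.27 with NEO2734 (edgeR adjusted p = 0.130), and passed without DOHH2 NEO2734 replicate 1 (-0.82, 0.0277) and with the replicate block within each line (0.0213). MCM2 had -0.57 ± 0.27 with NEO2734 (edgeR adjusted p = 0.142) and -0.50 ± 0.27 with OTX015 (0.261), and with the replicate block within each line the adjusted p was 0.0162 for NEO2734 and 0.0366 for OTX015. With OTX015 MCM2 had -0.84 within shallow libraries and -0.05 within deep ones. MCM7 had -0.28 ± 0.16 with OTX015 (edgeR adjusted p = 0.305), with -0.44 within shallow and -0.10 within deep libraries. MCM2 exons overlap those of TPRA1 on the opposite strand. With depth as a term, 4 of the 42 genes passed for NEO2734, beside 30.5% of all genes. MCM7, E2F2 (-0.61, adjusted p = 0.0291) and MCM2 (-0.60, 0.0270) were lower and CCNE2, cyclin E2, was higher (0.49, 0.0443).

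Of the G1/S drivers 0 of 7 were called by edgeR or DESeq2 for either compound (1 and 0 at an unadjusted p under 0.05 for NEO2734 and OTX015), with medians of -0.03 for NEO2734 and -0.15 for OTX015. Among DNA synthesis genes 0 of 8 were called by edgeR or DESeq2 for NEO2734 (1 at an unadjusted p under 0.05) and only RRM2 for OTX015, with medians of -0.05 and -0.06. PCNA had 0.09 ± 0.42 with NEO2734 and -0.22 ± 0.42 with OTX015, with a 95% interval for NEO2734 of -0.76 to 0.95. Mitotic entry genes, 0 of 8 called by edgeR or DESeq2 and 0 at an unadjusted p under 0.05 for either compound, had medians of 0.07 with NEO2734 and 0.01 with OTX015. MKI67, the proliferation antigen Ki-67, had 0.33 ± 0.23 with NEO2734 and 0.30 ± 0.23 with OTX015, neither passing without the block, while NEO2734 passed with the replicate block within each line (edgeR adjusted p = 0.0178). Spindle and exit genes, 0 of 10 called by edgeR or DESeq2 and 0 at an unadjusted p under 0.05 for either, had medians of 0.23 with NEO2734, where 7 of 10 were positive, and 0.17 with OTX015, where 8 of 10 were. The spindle checkpoint kinase TTK (edgeR adjusted p = 0.0216) and the spindle motor KIF11 (0.0209) passed for NEO2734 with that block.

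The intervals show how large a change could have gone uncalled. For NEO2734 37 of the 42 genes had a 95% interval wholly within a 2-fold change either way and 12 within a 1.5-fold change. For OTX015 the counts were 39 and 14. At an unadjusted p under 0.05, 5 of the 42 genes stood out for NEO2734 and 1 for OTX015. The median over all 42 genes was -0.02 for NEO2734 and -0.06 for OTX015, and neither sign held: leaving out 1 library in turn gave medians of -0.14 to 0.11 for NEO2734 and -0.14 to 0.07 for OTX015. In bulk RNA, fewer cells in a phase and less RNA per cell cannot be told apart.

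**Figure D2:**
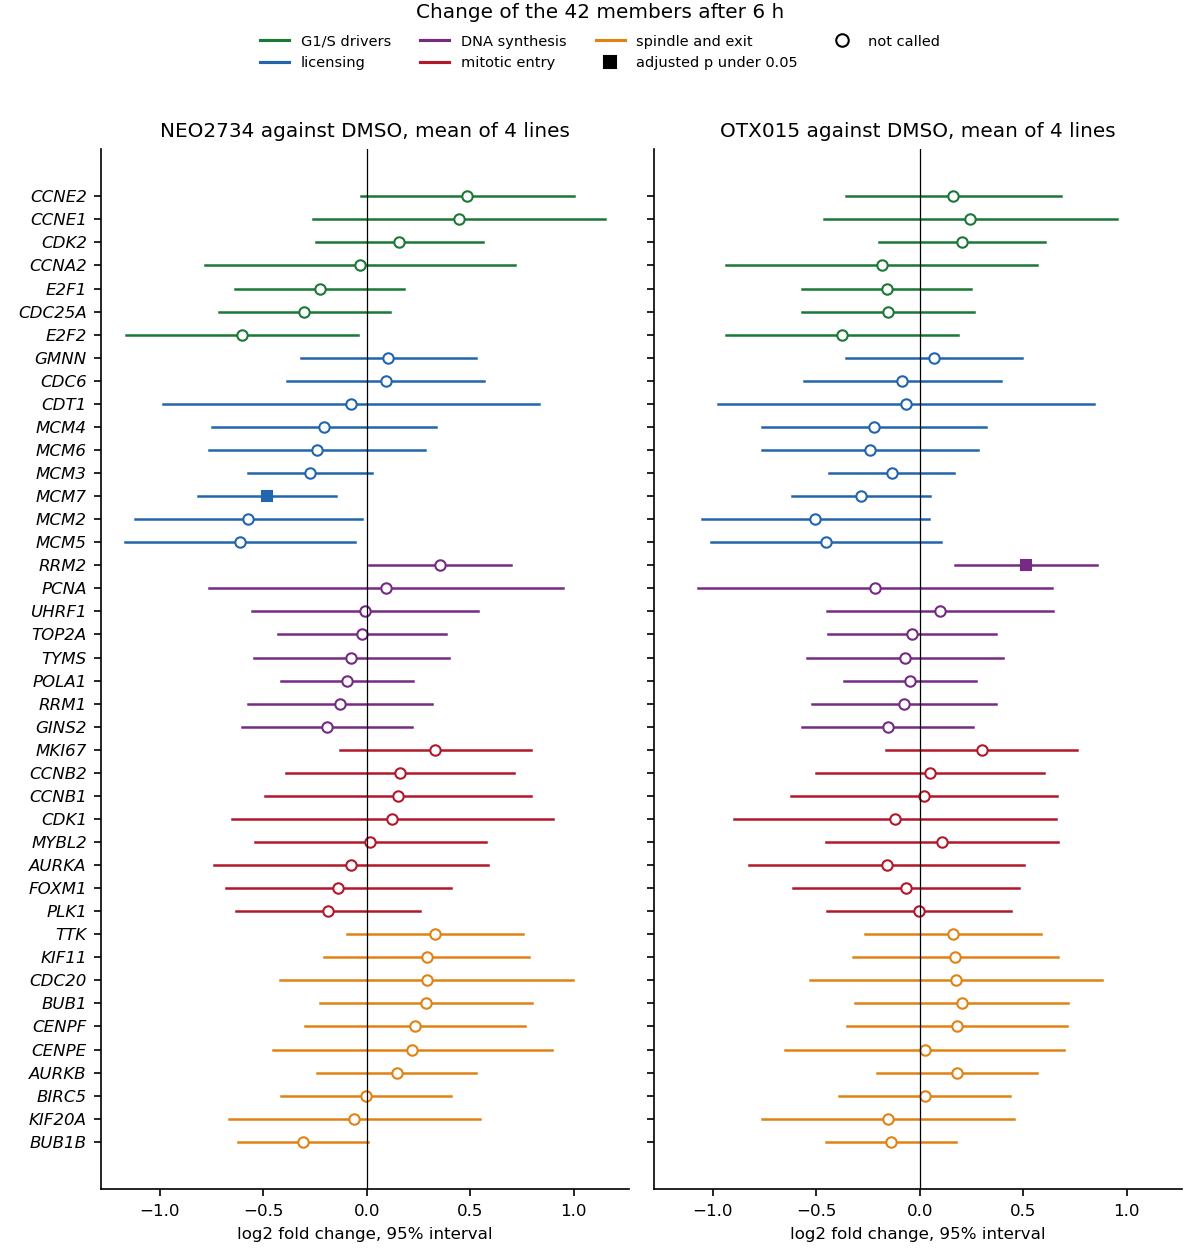
Log2 fold change of each of the 42 genes against DMSO, mean of 4 lines (horizontal axis, points with 95% intervals), for NEO2734 on the left and OTX015 on the right, ordered by role; filled squares passed. MCM7 (-0.48) is the 1 filled square for NEO2734 and RRM2 (0.51) the 1 for OTX015.

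Marker sums also differed between treatments. The T cell marker sum was 2.62 to 36.7 CPM (median 10.4) in NEO2734 libraries, 2.63 to 49.6 (11.8) in OTX015 libraries and 14.4 to 125.5 (50.02) in DMSO libraries. CD2 was at 0 in 25 of 39 libraries. The myeloid sum was 0 to 55.4 CPM with NEO2734, 0 to 55.8 with OTX015 and 0 to 73.7 with DMSO. The B cell marker sum had a median of 1200.0 CPM with NEO2734, 1604 with OTX015 and 2208 with DMSO. Their part in the changes of MCM7 and RRM2 was not tested.

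No gene of the 42 passed a direct comparison of the 2 bromodomain inhibitors. For NEO2734 over OTX015, 0 of 42 were called by edgeR, 0 had an unadjusted p under 0.05 and 0 were called by DESeq2, beside 0.0312% of all genes. The lowest p belonged to CCNE2, with a difference of 0.32 ± 0.25 (log2 scale; 95% interval -0.19 to 0.84). Of the 42 genes 40 had an interval within a 2-fold difference and 19 within a 1.5-fold difference. Each compound's change from DMSO uses the same DMSO libraries.

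Within single lines none of the 42 genes passed for either compound in the edgeR fit, with wider errors than for the mean of lines. The median SE of the 42 genes was 0.50 in DOHH2 with NEO2734, against 0.25 for the mean of 4 lines. For NEO2734 0 of 42 were called by edgeR in DOHH2 (2.90% of all genes), OCILy10 (1.01%), TMD8 (2.17%) and Toledo (5.47%), or 2.89% summed over lines. The counts at an unadjusted p under 0.05 were 1, 1, 0 and 0 in that order, and DESeq2 called 1 gene, in DOHH2. For OTX015 0 of 42 were called by edgeR in DOHH2 (0.125% of all genes), OCILy10 (0.0702%), TMD8 (0.39%) and Toledo (3.09%), or 0.919% summed, with 1, 2, 0 and 0 at an unadjusted p under 0.05 and 0 by DESeq2.

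RRM2 had the lowest p in DOHH2 for both compounds. It had 1122, 999.6 and 512.5 CPM with NEO2734, against the DMSO values given above, and every NEO2734 library was above every DMSO library. The change was 1.09 ± 0.34 (SE, log2 scale; edgeR adjusted p = 0.0754), and 1.38 (0.0445) without the 3 libraries with genes of another line. For OTX015 in DOHH2 it was 1.10 ± 0.34 (edgeR adjusted p = 0.211). Replicate numbers were taken to pair the libraries in both of these sets. With a replicate block within each line the edgeR adjusted p was 0.00394 for NEO2734 and 0.0157 for OTX015, so both calls changed. In OCILy10 RRM2 had the lowest p for OTX015 (0.91 ± 0.34, edgeR adjusted p = 0.408), and in Toledo it had -0.35 ± 0.34 with NEO2734 and -0.34 ± 0.34 with OTX015.

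E2F2 had the lowest p in OCILy10 for NEO2734. It had 13.7, 14.5 and 11.8 CPM with NEO2734, against 25.5, 47.5 and 31.1 with DMSO, and the groups did not overlap. The change was -1.37 ± 0.54 (SE, log2 scale; edgeR adjusted p = 0.274). The replicate block within each line, where the numbers were taken to pair the libraries, gave an edgeR adjusted p of 0.0304. In TMD8 MCM7 had the lowest p for NEO2734 (-0.60 ± 0.33, edgeR adjusted p = 0.519) and for OTX015 (-0.48 ± 0.33, 0.994). In Toledo CDK2 had the lowest p for NEO2734 (0.63 ± 0.39, edgeR adjusted p = 0.486, and 0.35 without the 3 libraries), and its exons overlap PMEL on the opposite strand. MYBL2, the B-MYB factor of late cell cycle genes, had the lowest p for OTX015 in Toledo (0.85 ± 0.55, edgeR adjusted p = 0.586).

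Some genes had groups that did not overlap within a line. For NEO2734 they were 3, 8, 1 and 2 of 42 in DOHH2, OCILy10, TMD8 and Toledo, beside 18.4%, 20.0%, 17.9% and 13.1% of all genes. In OCILy10 6 of the 8 were lower with NEO2734. For OTX015 they were 1, 2, 0 and 1 of 42, beside 13.5%, 12.6%, 12.9% and 10.4%.

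**Figure D3:**
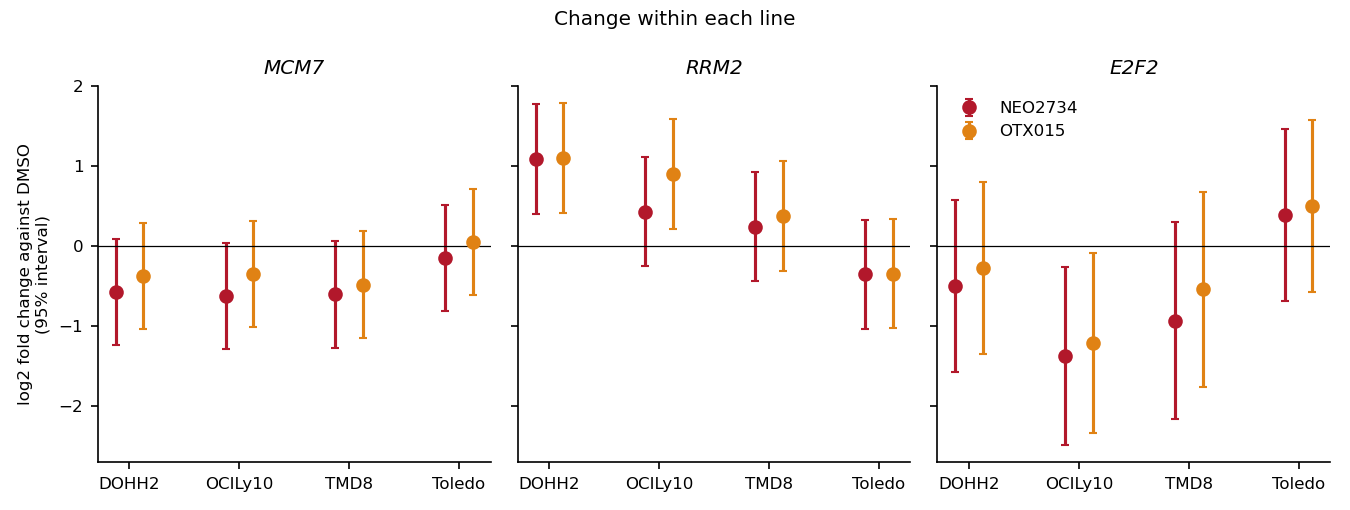
Log2 fold change against DMSO of MCM7, RRM2 and E2F2 within each line (points with 95% intervals), for NEO2734 (left of each pair) and OTX015. RRM2 is highest in DOHH2 (1.09 and 1.10) and negative in Toledo (-0.35 and -0.34), while the changes of MCM7 and E2F2 are lowest in OCILy10 with NEO2734 (-0.62 and -1.37).

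The response to a compound did not pass a test of difference between the 4 lines for any of the 42 genes. For NEO2734 0 of 42 were called by the edgeR F-test and by DESeq2, beside 0.0156% of all genes, and 1 had an unadjusted p under 0.05. For OTX015 0 were called by either tool, beside 0.0% of all genes, and again 1 had an unadjusted p under 0.05. That gene was RRM2 in both cases, with an edgeR adjusted p of 0.755 for NEO2734 and 1.0 for OTX015.

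CB103, tested in OCILy10 alone, gave no called change. By edgeR 0 of 42 genes passed (0.0% of all genes), 0 had an unadjusted p under 0.05, and DESeq2 called 0. BUB1B, a spindle checkpoint kinase, had the lowest p, with 152, 168 and 233 CPM with CB103, against 139, 104 and 174 with DMSO. The groups overlapped, and the difference was 0.40 ± 0.31 (log2 scale), or 0.45 without the 3 libraries, of which CB103 replicate 2 is 1. Full separation of CB103 from DMSO was seen for 0 of 42 genes, beside 2.42% of all genes. HEXIM1 (0.46 ± 0.46) and MYC (-0.20 ± 0.44) did not pass with CB103 either.

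**Figure D4:**
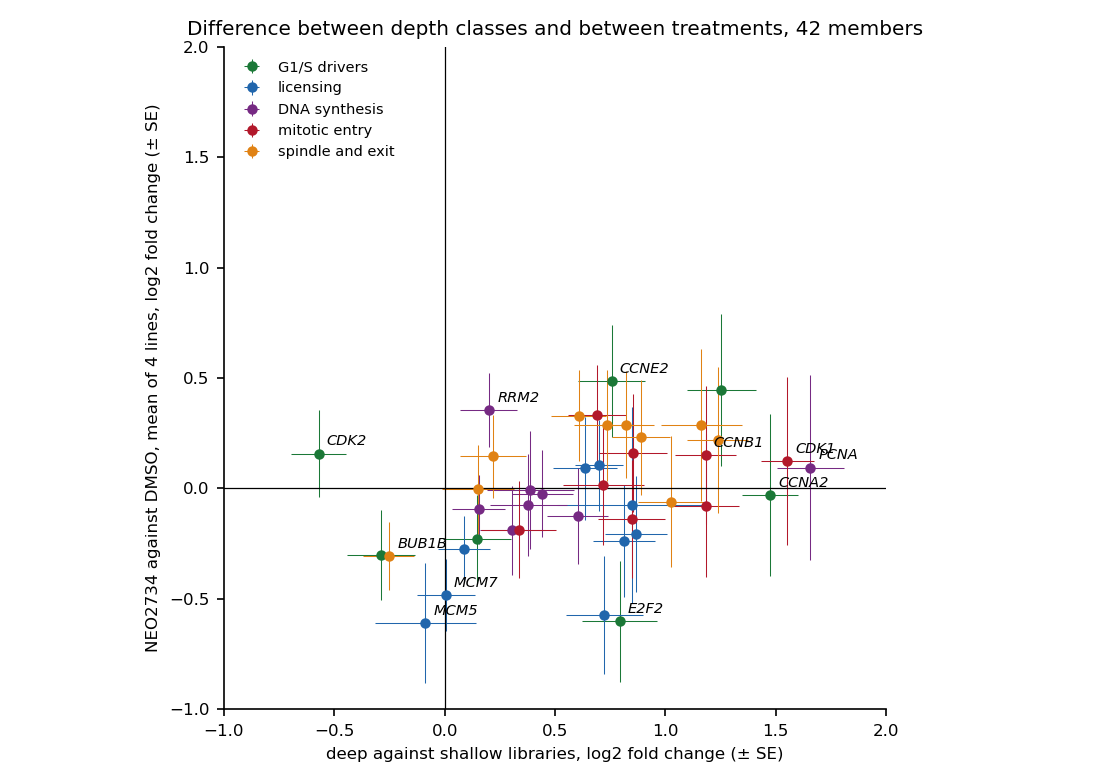
Log2 difference of each of the 42 genes between deep and shallow libraries (horizontal axis) and between NEO2734 and DMSO, mean of 4 lines (vertical axis), with standard errors, coloured by role; both axes share a scale. The genes spread along the depth axis up to PCNA (1.66) and stay within -0.61 to 0.49 on the compound axis.

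Without any compound, E2F2, RRM2, BIRC5, BUB1 and MCM7 gave the lowest p of these genes between the 4 lines. Over the 12 DMSO libraries 12 of 42 genes differed between lines (edgeR F-test, adjusted p under 0.05), beside 48.1% of all genes. They were 3 of 7 G1/S drivers, 1 of 9 licensing, 5 of 8 DNA synthesis, 0 of 8 mitotic entry and 3 of 10 spindle and exit genes. With depth as a term 24 of 42 passed (66.2% of all genes), and without the 3 libraries with genes of another line 16 (51.6%). The mitotic entry genes CDK1, FOXM1, MKI67 and AURKA were among those passing with depth as a term. The 10 genes named here passed without the 3 libraries with genes of another line too. MCM5, not called with them, also passed then (edgeR F-test, adjusted p = 0.000702), with a lower p than MCM7 (0.001945). TMD8, DOHH2 and Toledo had 1 deep DMSO library each, and OCILy10 had 1 shallow one. Calls between lines within 1 depth are therefore not counted.

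E2F2 had the lowest p (edgeR F-test, adjusted p = 0.000205). It had 25.5, 47.5 and 31.1 CPM in OCILy10, 11.4, 8.86 and 7.69 in TMD8, 134.7, 53.8 and 38.8 in DOHH2 and 123, 51.6 and 90.04 in Toledo. All TMD8 libraries were below all others, and OCILy10 overlapped DOHH2. Its level in OCILy10 and TMD8 was lower than in DOHH2 and Toledo by a log2 difference of -2.18 ± 0.40 (SE; edgeR adjusted p = 9.18e-05). E2F1, the related factor, had 34.4, 32.1 and 38.5 CPM in TMD8 and 95.8, 82.5 and 119 in Toledo, against 37.7, 59.9 and 70.8 in OCILy10 and 69.7, 55.7 and 50.4 in DOHH2 (edgeR F-test, adjusted p = 0.0210). All Toledo libraries were above all others, and OCILy10 overlapped TMD8. The call was lost without TMD8 DMSO replicate 1 (adjusted p = 0.0523) or 2 (0.0588) and without Toledo DMSO replicate 1 (0.0539) or 3 (0.0839).

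RRM2 was lowest in TMD8 and highest in OCILy10 by mean (edgeR F-test, adjusted p = 0.000857). It averaged 468 ± 57.6 CPM in OCILy10, 146 ± 61.8 in TMD8, 413 ± 81.2 in DOHH2 and 276 ± 58.3 in Toledo (SD, n = 3). TMD8 was lower than DOHH2 by a log2 difference of -1.50 ± 0.34 (edgeR adjusted p = 0.00113), and OCILy10 was higher than TMD8 by 1.68 ± 0.34 (0.000571). MCM7 averaged 535.5 ± 109.8 CPM in OCILy10, 311.5 ± 61.6 in TMD8, 816.5 ± 75.4 in DOHH2 and 838 ± 311.5 in Toledo (SD, n = 3; edgeR F-test, adjusted p = 0.00218). Its difference by type was -1.02 ± 0.23 (edgeR adjusted p = 0.00113), with TMD8 below every library of DOHH2 and Toledo.

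Toledo had the highest mean levels of several chromatin and spindle genes. BUB1, a spindle checkpoint kinase, had 71.4, 43.5 and 43.7 CPM in OCILy10 and 441, 107 and 415 in Toledo, the 107 being the library with genes of OCILy10 (log2 difference -2.60 ± 0.53, edgeR adjusted p = 0.00104, and -2.94 without the 3 libraries). BIRC5, survivin, had 46.7 to 76.4 CPM in OCILy10 and 121 to 404 in Toledo, without overlap (-1.89 ± 0.42, edgeR adjusted p = 0.00197, and -2.12 without the 3 libraries). BUB1 had 87.95 to 255 CPM in DOHH2 and 62.5 to 240 in TMD8. BIRC5 had 108 to 159 CPM in DOHH2 and 35.1 to 124 in TMD8. For both genes these 2 lines overlapped Toledo only through its replicate 2. CENPF, a kinetochore protein, averaged 187 ± 69.6 CPM in OCILy10, 238 ± 138 in TMD8, 185 ± 90.5 in DOHH2 and 624 ± 317 in Toledo (edgeR F-test, adjusted p = 0.00880, and 0.00411 without the 3 libraries), and the call was lost without Toledo DMSO replicate 1 (adjusted p = 0.138). TOP2A, topoisomerase II alpha, averaged 516 ± 183 CPM in OCILy10, 645 ± 318 in TMD8, 478 ± 102 in DOHH2 and 1201 ± 595 in Toledo (edgeR F-test, adjusted p = 0.0157, and 0.00322 without the 3 libraries), with the call lost without Toledo DMSO replicate 1 (0.0935) or 3 (0.184). UHRF1, which guides maintenance DNA methylation, averaged 50.6 ± 14.9 CPM in OCILy10, 17.1 ± 3.49 in TMD8, 28.5 ± 4.69 in DOHH2 and 80.6 ± 14.3 in Toledo (edgeR F-test, adjusted p = 0.00614, and 0.0130 without the 3 libraries). POLA1, the catalytic subunit of polymerase alpha, averaged 109 ± 14.6 CPM in OCILy10, 60.4 ± 23.1 in TMD8, 74.0 ± 8.27 in DOHH2 and 139 ± 36.0 in Toledo (edgeR F-test, adjusted p = 0.00836, and 0.00439 without the 3 libraries).

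By type, 7 of 42 genes differed, 1 higher and 6 lower in OCILy10 and TMD8 than in DOHH2 and Toledo, beside 29.0% of all genes (14.0% higher, 15.0% lower). Besides E2F2, E2F1 and MCM7, the lower ones were BIRC5 (-1.24 ± 0.29), BUB1 (-1.29 ± 0.36) and CCNE2 (-1.08 ± 0.36), and MCM5 was higher (1.09 ± 0.39). These averages were not shared by every pair of lines. Without the 3 libraries with genes of another line, BUB1 had 0.04 in TMD8 against DOHH2 and -1.44 against Toledo. E2F1 had -0.03 in OCILy10 against DOHH2 and -0.86 against Toledo. MCM7 in OCILy10 passed against neither DOHH2 (-0.56, edgeR adjusted p = 0.196) nor Toledo (-0.68, 0.149). Against DOHH2, E2F2 did not pass in OCILy10 (-1.09, edgeR adjusted p = 0.0952). BIRC5 (-0.57, 0.295) and MCM5 (0.97, 0.111) did not pass in TMD8 against DOHH2. CCNE2 passed against DOHH2 in neither OCILy10 (-0.87, 0.171) nor TMD8 (-0.53, 0.447). The MCM5 difference by type was 1.83 without the 3 libraries with genes of another line and 1.78 without Toledo DMSO replicate 2. It did not pass without Toledo DMSO replicate 1 (0.90, edgeR adjusted p = 0.0791) or 3 (0.94, 0.0951), or with scaling by library totals (1.01, 0.0612). Without the 3 libraries 10 of 42 genes differed by type, beside 32.9% of all genes. The number of 7 fell to 4 without DOHH2 DMSO replicate 1 and to 4 without Toledo DMSO replicate 1. Over the 6 pairs of lines 29 of the gene and pair combinations passed, beside 23.9% of all, and 41 without the 3 libraries, beside 27.5%. OCILy10 against TMD8 gave 3 higher and 2 lower (20.8% of all genes, 10.7% higher and 10.1% lower), OCILy10 against DOHH2 3 lower (30.1%, 13.9% lower) and TMD8 against DOHH2 3 lower (28.5%, 13.5% lower). Against Toledo, OCILy10 had 6 lower (15.9%, 11.3% lower), TMD8 8 lower (24.9%, 14.8% lower) and DOHH2 4 lower (23.5%, 15.5% lower). Without the 3 libraries, OCILy10 had 2 higher and 8 lower than Toledo (29.6% of all genes), TMD8 1 higher and 12 lower (28.8%) and DOHH2 5 lower (23.8%). The higher ones were MCM5 in OCILy10 (2.69) and TMD8 (2.23) and RRM2 in OCILy10 (1.00). Groups that did not overlap numbered 9 of 42 for OCILy10 against DOHH2 (39.9% of all genes), 11 for OCILy10 against TMD8 (35.7%) and 11 for OCILy10 against Toledo (26.1%). They numbered 10 for TMD8 against DOHH2 (40.8%), 9 for TMD8 against Toledo (32.4%) and 5 for DOHH2 against Toledo (28.0%). The median log2 difference of the 42 genes from Toledo was -0.43 for OCILy10, -0.67 for TMD8 and -0.57 for DOHH2, against 0.00, -0.11 and -0.07 for all genes. Within deep libraries these medians were -0.46, -0.15 and -0.15 for OCILy10, TMD8 and DOHH2 in that order. Within shallow libraries they were -0.69, -0.72 and -0.81. TMD8, DOHH2 and Toledo had 1 deep DMSO library each, and OCILy10 had 1 shallow one. Toledo DMSO replicate 2, which held genes of OCILy10, was among the shallow libraries. A difference of these medians with depth was not tested.

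The common proliferation readouts did not pass the test between lines in the fit without a depth term. MKI67 averaged 403 ± 127 CPM in OCILy10, 645 ± 334 in TMD8, 369 ± 85.8 in DOHH2 and 569.5 ± 120 in Toledo (SD, n = 3; edgeR F-test, adjusted p = 0.344). PCNA averaged 382 ± 200 CPM in OCILy10, 167 ± 134 in TMD8, 178 ± 143 in DOHH2 and 286 ± 155 in Toledo (edgeR F-test, adjusted p = 0.556). CDK1 (edgeR adjusted p = 0.884) and CCNB1 (0.770) were also not called. With depth as a term CDK1 (edgeR F-test, adjusted p = 0.0149), MKI67 (0.0291) and PCNA (0.0331) passed, and CCNB1 (0.358) did not. Of all genes 66.2% passed in that fit. For CDK1 the deep DMSO library of a line had 160.5 to 235 CPM, and OCILy10, with a deep pair, had 183.5 and 103.5 CPM. Per kilobase of exon, PCNA had the highest DMSO level of the 42 genes (172 CPM per kb, mean of 4 lines), ahead of MCM7 (143) and TOP2A (110.3). Cyclin E1 (5.18), CDT1 (5.83) and cyclin E2 (6.16) had the lowest.

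**Figure D5:**
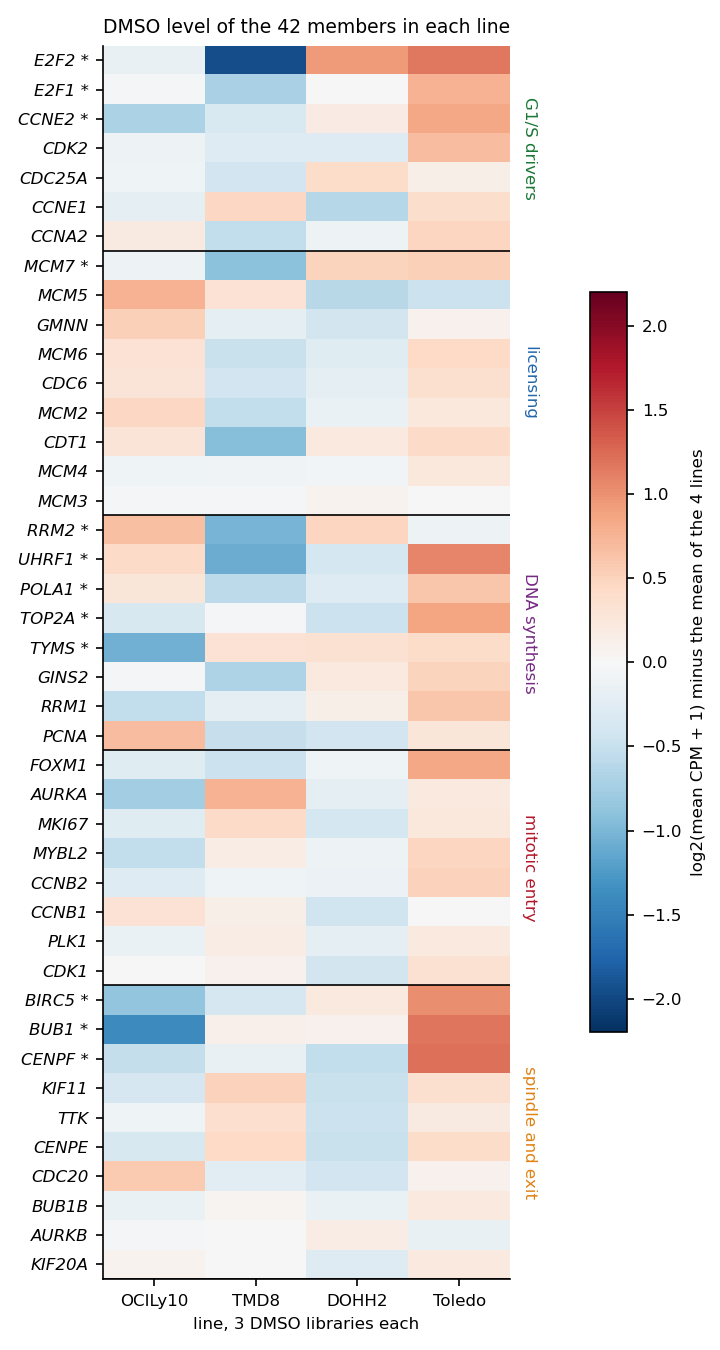
Mean DMSO level of the 42 genes in each line (columns; 3 libraries each), as log2(CPM + 1) minus the mean of the 4 lines, in role groups (rows); an asterisk marks an adjusted p under 0.05 in the F-test between lines. Toledo is above the mean for most genes, E2F2 is lowest in TMD8, and no mitotic entry gene has an asterisk in this fit without a depth term.

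Lists of other genes of the same pathways held a few called changes each, beside 20.5% of all genes for NEO2734 and 11.6% for OTX015. Of 48 further replication genes 0 rose and 2 fell with NEO2734, ORC5 (-0.51 ± 0.15) and ORC2 (-0.43 ± 0.13), both subunits of the origin recognition complex. Of 65 further mitosis genes 2 rose and 1 fell. KNL1, a kinetochore scaffold, rose by 0.63 ± 0.16 and ANLN, the cytokinesis protein anillin, by 0.53 ± 0.18, while BUB3, a spindle checkpoint protein, fell by 0.44 ± 0.11. In that list 50 of 65 estimates were positive (median 0.19, all genes -0.02). Of 27 further E2F and cell cycle regulators 1 rose, MYBL1 (1.29 ± 0.30), a MYB family factor, and 4 fell, among them RB1, the retinoblastoma protein (-0.47 ± 0.13), and HCFC1, a chromatin cofactor (-0.71 ± 0.22). Of 21 checkpoint and repair genes FANCD2 (-0.48 ± 0.16) and MDC1 (-0.37 ± 0.13) fell. With OTX015 MYBL1 (1.10 ± 0.31) and KNL1 (0.56 ± 0.16) rose and BUB3 fell (-0.43 ± 0.11), with 0 called of 48 replication and 0 of 21 checkpoint and repair genes by edgeR, where 8 and 1 had an unadjusted p under 0.05 and DESeq2 called 2 and 0. Between lines under DMSO, 10 of 48 replication, 11 of 65 mitosis, 9 of 27 E2F and regulator, and 7 of 21 checkpoint and repair genes differed. Of all genes 48.1% differed in the same test.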

How the data were processed

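RNA-seq of 39 libraries (TruSeq RNA kit, per the labels' protocols) was analysed from gene counts that the authors deposited as whole numbers. STAR, edgeR and hg38 are named in the submitters' processing notes. The sources used here do not name a counting program, annotation, strand setting or version. A second deposited table equalled the first in 38 columns and differed in 1 (OCILy10 CB103 replicate 1), where the first was used. Symbols and coordinates came from GENCODE 29, and 218 of 15808 IDs had no symbol.

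Counts were fitted with edgeR 4.0.16 in R 4.3.3 (TMM scaling, filterByExpr by group, quasi-likelihood test, 13 group terms, 26 residual degrees of freedom), with Benjamini-Hochberg adjustment over 12814 genes and a threshold of 0.05. Differences are log2 with standard errors. DESeq2 1.42.0, other scalings, no filter, a replicate block, depth class as a term, deep or shallow libraries alone (split at 5000000 counts), and leaving out libraries were alternatives. The depth comparison, the within-line block, scaling by library totals, depth as a term without 3 libraries and the second table were added after seeing the data. The fit was tested on data simulated with treatment changes and without a difference between depth classes, so that test does not cover depth.

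Libraries were grouped by their titles. Replicate numbers were taken to pair libraries where same-numbered deviations from group means correlated above 0.1 for every number, which held in 5 of 9 line and compound sets (both inhibitors in DOHH2 and TMD8, NEO2734 in OCILy10). In these 5 sets the same numbers were deep in the compound and the DMSO group, so the rule cannot tell pairing from shared depth. The members and lists were chosen with earlier results of these data known. In full are given the called genes of each averaged contrast or, where fewer than 3 passed, the 3 of lowest p, the gene of lowest p within each line, the 10 of lowest p between lines, and a few proliferation readouts.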

Additional observations from a re-analysis of the deposited data

How the results depend on the processing

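Shares in parentheses are of all genes called under the same setting. The counts of called genes, of 42, were 1 for NEO2734 and 1 for OTX015 (means of 4 lines), 0 within lines for each, 12 between lines under DMSO, 7 by type and 29 over pairs of lines. With replicate number as a block they were 2 for NEO2734 (25.7%), 1 within lines for NEO2734 (4.88%), 20 between lines (57.7%), 12 by type (34.7%) and 51 over pairs (29.9%). Depth as a term gave 4 for NEO2734 (30.5%), 2 within lines for NEO2734 (7.93%), 24 between lines (66.2%), 13 by type (41.7%) and 73 over pairs (36.0%). Depth as a term without the 3 libraries with genes of another line gave 4 for NEO2734 (29.4%), 3 and 1 within lines for NEO2734 (7.66%) and OTX015 (2.27%), 25 between lines (72.7%), 14 by type (47.1%) and 79 over pairs (41.8%). A block of replicate number within each line gave 9 and 2 for the NEO2734 (28.5%) and OTX015 (18.9%) means and 2 within lines for NEO2734 (6.09%) and for OTX015 (1.75%). Those within lines were RRM2 for both inhibitors in DOHH2, E2F2 for NEO2734 in OCILy10, and RRM2 for OTX015 in OCILy10 (adjusted p = 0.0242), where the numbers were not taken to pair the libraries. Shallow libraries alone, and deep libraries alone, left 1 library in some groups, so genes called there are not counted. Without the 3 libraries NEO2734 had 0 as a mean (16.3%) and 1 within lines (1.66%), and there were 16 between lines (51.6%), 10 by type (32.9%) and 41 over pairs (27.5%). DESeq2 gave 1 within lines for NEO2734 (4.63%). OTX015 had 0 without the filter (8.75%) and with the second table (9.41%). Leaving out 1 library in turn gave 0 to 3 for NEO2734, 0 to 1 for OTX015, 0 to 1 within lines for NEO2734, 0 within lines for OTX015, 0 for NEO2734 over OTX015, for both tests of response and for CB103, 7 to 16 between lines (7 without Toledo DMSO replicate 1), 4 to 10 by type and 18 to 42 over pairs (18 and 19 without OCILy10 DMSO replicate 2 or 3). The cause of these shifts was not tested. The median of the 42 genes lay near 0 and changed sign: for NEO2734 it was 0.01 under upper quartile scaling and 0.02 without the filter, and for OTX015 0.01 with depth as a term. In Toledo same-numbered libraries did not deviate together (NEO2734 correlations -0.628, -0.102 and -0.611), and the block within each line was applied there too. Precision is limited by totals as low as 1000281 counts and by 3 libraries a group.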
